A study of Mus musculus with 6 samples.

Results

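The 10 genes described here encode keratins of the epidermis, grouped as basal (*Krt5*, *Krt14*, *Krt15*), suprabasal (*Krt1*, *Krt10*), stress (*Krt6a*, *Krt6b*, *Krt16*, *Krt17*) and mucosal (*Krt13*). They were taken by symbol as a named list, and all 10 were found among the 24982 genes listed for each library. The RNA-seq compared 3 libraries of KSFM-Ca2+ cells, a keratinocyte line from neonatal C57BL/6 mouse skin grown in low-calcium medium, with 3 libraries of DKSFM cells, which descend from KSFM-Ca2+ cells and were adapted to the medium DKSFM. Neither line was treated, and both share the same origin. The study measured more calcium in DKSFM than in KSFM-Ca2+, and reports that few cells survived the change of medium. Medium, its calcium, adaptation and this survival cannot be told apart. The study speaks of independent experiments in general terms, but neither it nor the labels say whether these replicate libraries came from separate cultures, so p-values measure only the spread between these samples, which may be technical. The files hold the mean read coverage per base of each gene, with totals over all genes of 1601676, 1238411 and 1057750 in KSFM-Ca2+ replicates 1, 2 and 3 and of 1174348, 1239438 and 1170675 in the DKSFM replicates. Coverage does not grow with transcript length, so levels were compared between genes. Reads shared by close copies limit such comparisons for some members, as given below. The names of the files for KSFM-Ca2+ replicate 3 and for every DKSFM replicate carry the word combined, which the sources used here do not explain.

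Keratins form the intermediate filaments of epithelial cells, and each filament is built from pairs of a type I and a type II keratin. Basal keratinocytes make the pair of *Krt5* (type II) and *Krt14* (type I). Cells that leave the basal layer switch to *Krt1* (type II) and *Krt10* (type I), while wounded, hyperproliferative or cultured keratinocytes make *Krt6a* and *Krt6b* (type II) with *Krt16* and *Krt17* (type I).

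The libraries carried the markers of keratinocytes. All 9 markers fixed for this cell type were detected and tested, with *Krt14* the most abundant. Their sum is mostly *Krt14* and *Krt5*, which are members, so it is not given as a separate sign of cell type. Of the 7 others, *Trp63*, *Itga6*, *Sfn*, *Col17a1*, *Cdh1* and *Itgb4* had log2 fold changes of 0.13, 0.14, 0.14, 0.37, -0.13 and -0.74, none past 2-fold, and *Perp* rose by 1.62 (adjusted p = 2.50e-09 in limma). Of 7 fibroblast markers, 6 (*Col1a1*, *Col1a2*, *Col3a1*, *Pdgfrb*, *Dcn* and *Lum*) were listed at 0 in every library, and the sums, all from *Pdgfra*, were at most 1.30 and 2.34. The 3 embryonic stem cell markers (*Pou5f1*, *Nanog*, *Zfp42*) were also at 0 throughout. The markers of melanocytes summed to between 3.96 and 4.60 in the KSFM-Ca2+ libraries, led by *Mitf* (mean 3.51) and then *Pmel* (0.594). In the DKSFM libraries they summed to between 17.3 and 18.7, nearly all of it *Mitf*. *Dct* and *Tyr* were at 0 throughout. Endothelial markers summed to at most 3.30 and 8.29, led by *Pecam1*, with *Cdh5* at 0. Markers of immune and Langerhans cells summed to at most 1.89 and 0.200, with *Cd74* listed at 1.6, 1.5 and 1.6 and then at 0 in each DKSFM library, and *H2-Aa* and *Cd3e* at 0. Merkel cell markers summed to at most 1.07 and 0.849, led by *Isl1*, with *Atoh1* and *Chga* at 0. The *Mitf*, *Pecam1*, *Pdgfra* and *Cd74* values moved with the line, with log2 fold changes of 2.31, 1.42, 0.95 and -4.01. Their part in the keratin values was not tested.

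Every one of the 10 keratins was higher in the DKSFM cells than in the KSFM-Ca2+ cells, with no overlap between the 3 libraries of each line. Non-overlap with DKSFM higher was found for 41.2% of all 12409 genes tested, and non-overlap in either direction for 83.3%. *Krt14* became the gene with the highest coverage of all, and the largest folds were those of *Krt15*, *Krt13* and *Krt6b*. Of the 9 keratins that passed the filter on low values (3 or more libraries with a normalized coverage of 0.5 or above), 7 rose past the threshold of limma, an adjusted p under 0.01 with at least a 2-fold change. Over all tested genes 13.2% passed in this direction and 10.5% in the other. *Krt10* and *Krt6a* had adjusted p-values under 0.01, as did 72.6% of all tested genes, but changed by less than 2-fold. *Krt1* did not pass the filter. None of the 9 fell in limma, and 0 were lower at an unadjusted p under 0.05. The median log2 fold change of the 9 was 1.31, against -0.00118 over all tested genes. No tested member depended on the DKSFM libraries alone to pass the filter. Fold changes are DKSFM over KSFM-Ca2+ on the scale of log2(normalized coverage + 0.1), which understates the change of genes with low coverage. In bulk RNA, more cells of a type and more RNA per cell cannot be told apart.

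**Figure D1:**
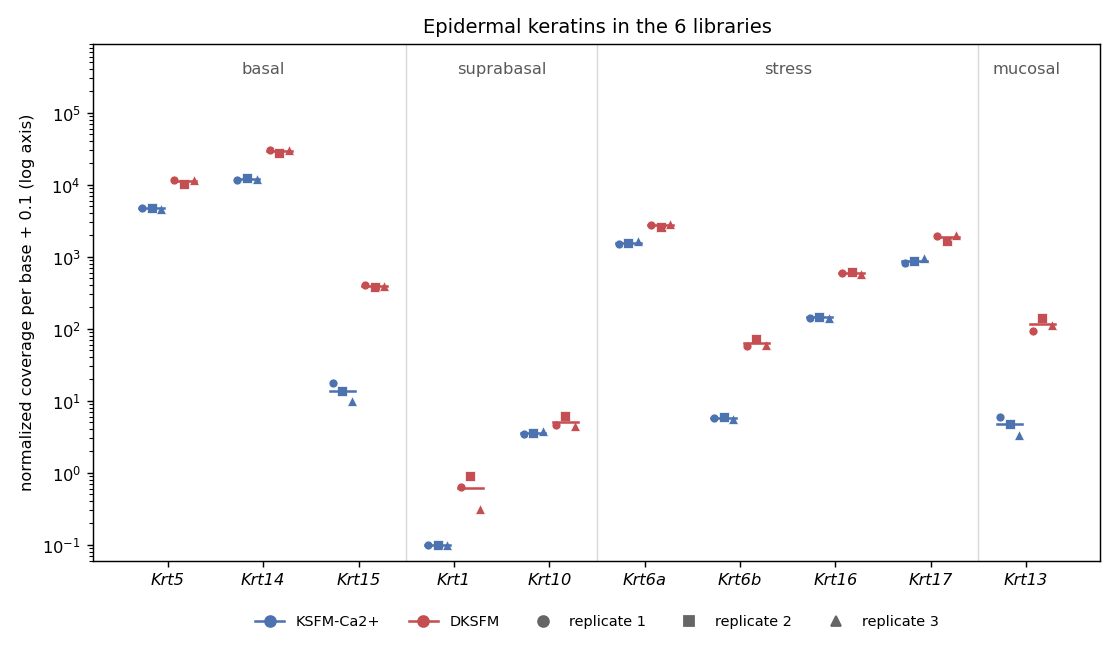
Normalized coverage per base plus 0.1 (log axis) of the 10 epidermal keratins in each of the 6 libraries, with replicates as symbols and the mean of each line as a bar. The DKSFM libraries lie above the KSFM-Ca2+ libraries for each keratin, with *Krt14* the highest in both lines and *Krt1*, listed at 0 in KSFM-Ca2+, the lowest.

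The basal keratin *Krt14* (chromosome 11 from 100203162 to 100207548, minus strand, 8 exons; GRCm38, GENCODE M21) had a normalized coverage of 11745, 12195 and 11984 in KSFM-Ca2+ replicates 1, 2 and 3 and of 30404, 27980 and 30773 in the DKSFM replicates. It ranked at position 3 of all listed genes in each KSFM-Ca2+ library and at position 1 in each DKSFM library. The means were 11975 ± 225 and 29719 ± 1517 (SD, n = 3), a log2 fold change of 1.31 (standard error 0.04, adjusted p = 4.66e-08 in limma). With quantile normalization, which forces the same distribution of values on all libraries, the log2 fold change was 0.93 and fell short of 2-fold, while the adjusted p was 4.63e-09 (2.07e-09 to 5.02e-06 over 18 alternatives). As *Krt14* held the top rank in each DKSFM library, that setting replaces its value with the mean of the top ranks.

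*Krt5*, the type II partner of *Krt14* (chromosome 15 from 101707070 to 101712898, minus strand, 9 exons), had 4710.1, 4684 and 4658 in the KSFM-Ca2+ libraries and 11629, 10234 and 11580 in the DKSFM libraries. Its spread within KSFM-Ca2+, a coefficient of variation of 0.558%, was the smallest of the tested members. The rank of *Krt5* among all listed genes went from 14, 15 and 15 to 4 in each DKSFM library. From a mean of 4684 ± 26.1 it rose to 11148 ± 791, a log2 fold change of 1.25 (standard error 0.05, adjusted p = 1.28e-07 in limma). The change of *Krt5* was close to that of its partner.

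*Krt15* (chromosome 11 from 100131758 to 100135928, minus strand, 8 exons) is a type I keratin of basal cells and of the hair follicle bulge. It had 17.2, 13.5 and 9.91 in the KSFM-Ca2+ libraries and 403, 379 and 394 in the DKSFM libraries. Among the KSFM-Ca2+ libraries replicate 1 was the highest and replicate 3 the lowest, with a coefficient of variation of 27.0% against 3.18% in DKSFM. The means of 13.6 ± 3.66 and 392 ± 12.5 gave a log2 fold change of 4.88 (standard error 0.17, adjusted p = 5.62e-08 in limma), the largest of the tested members. *Krt15* stood at ranks 7182 to 8432 in the KSFM-Ca2+ libraries and at 519 to 553 in those of DKSFM. Even so it reached a small part of the level of *Krt14*.

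*Krt1*, the suprabasal type II keratin (chromosome 15 from 101845426 to 101850794, minus strand, 9 exons), was listed at 0 in all 3 KSFM-Ca2+ libraries and at 0.5, 0.8 and 0.2 in DKSFM replicates 1, 2 and 3, before normalization. From transcript length and read length, these listed values stand for an approximate 14.4, 23.1 and 5.78 reads. *Krt1* was thus close to the rounding step of 0.1 in both lines, and no fold is given against a line listed at 0. When the filter was dropped, or was lowered because a library was left out, *Krt1* could enter the fit (see the settings at the end of the text for its calls).

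*Krt10*, the type I partner of *Krt1* (chromosome 11 from 99385254 to 99389364, minus strand, 8 exons), had 3.35, 3.46 and 3.66 in the KSFM-Ca2+ libraries and 4.57, 6.10 and 4.35 in the DKSFM libraries. DKSFM replicate 2 stood above the other DKSFM libraries, and the lowest DKSFM value lay above the highest KSFM-Ca2+ value. The means of 3.49 ± 0.154 and 5.002 ± 0.953 gave a log2 fold change of 0.49 (95% interval 0.18 to 0.81, adjusted p = 0.00963 in limma). Over 18 alternatives this adjusted p ran from 0.00633 to 0.104, and without DKSFM replicate 2 the log2 fold change was 0.35 (adjusted p = 0.0150 in limma). *Krt10* lay between ranks 9485 and 10132 of the listed genes over the 6 libraries. The suprabasal pair was therefore far below the basal pair in each library, in both media.

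**Figure D2:**
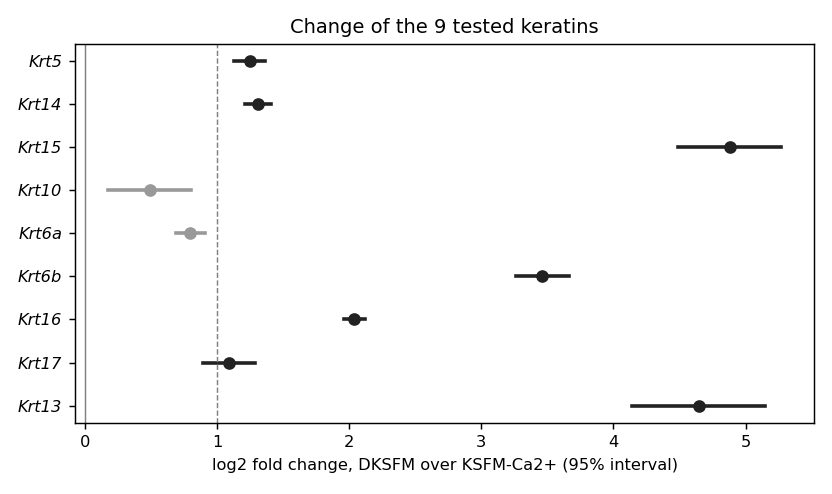
Log2 fold change of DKSFM over KSFM-Ca2+ for the 9 tested keratins, with 95% intervals from limma; black marks the 7 that passed both thresholds and grey the others, and the dashed line marks a 2-fold change. *Krt15*, *Krt13* and *Krt6b* lie farthest to the right at 4.88, 4.65 and 3.46, and the intervals of *Krt10* and *Krt6a* end left of the dashed line.

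The stress keratins differed widely in level and in change. *Krt6a* (chromosome 15 from 101689910 to 101694307, minus strand, 9 exons) had 1498, 1529 and 1666 in the KSFM-Ca2+ libraries and 2726, 2603 and 2825 in the DKSFM libraries. It was the most covered stress keratin in both lines. The means of 1564 ± 89.4 and 2718 ± 111 gave a log2 fold change of 0.80 (95% interval 0.69 to 0.91, adjusted p = 1.17e-06 in limma), so that *Krt6a* was higher in DKSFM by less than 2-fold.

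*Krt6b* (chromosome 15 from 101676023 to 101680287, minus strand, 9 exons), the neighbouring copy of *Krt6a*, had 5.56, 5.83 and 5.55 in the KSFM-Ca2+ libraries and 58.2, 72.7 and 59.7 in the DKSFM libraries. DKSFM replicate 2 was again the highest of its line. The rise from 5.65 ± 0.162 to 63.5 ± 8.01 was a log2 fold change of 3.46 (standard error 0.09, adjusted p = 1.09e-08 in limma). The 2 copies thus had unlike changes, and *Krt6b* remained the smaller by far.

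*Krt16* (chromosome 11 from 100246091 to 100248902, minus strand, 8 exons), a type I keratin induced in wounds and in psoriasis, had 142, 147 and 141 in the KSFM-Ca2+ libraries and 586, 613 and 574 in the DKSFM libraries. Its replicates were close in both lines. From 144 ± 3.27 to 591 ± 19.8 it rose by a log2 fold change of 2.04 (standard error 0.03, adjusted p = 1.40e-09 in limma). *Krt17* (chromosome 11 from 100256217 to 100261029, minus strand, 8 exons), a type I keratin of hair follicles and of wounded epidermis, had 814, 867 and 960.4 in the KSFM-Ca2+ libraries and 1966, 1648 and 2011 in the DKSFM libraries. DKSFM replicate 2 was the lowest of its line for *Krt17*. The means of 881 ± 74.0 and 1875 ± 198 gave a log2 fold change of 1.09 (95% interval 0.89 to 1.28, adjusted p = 5.88e-06 in limma), an interval that holds the 2-fold limit. In the 4 libraries whose file names say combined, which leave 1 KSFM-Ca2+ library assumed to vary like the others, *Krt17* changed by 0.96 and fell short of 2-fold (adjusted p = 0.000184 in limma, 7.26e-07 to 0.000184 over 18 alternatives).

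*Krt13* (chromosome 11 from 100117327 to 100121566, minus strand, 8 exons) is the type I keratin of mucosal epithelia such as the oral lining, where its partner is *Krt4*. It had 5.87, 4.65 and 3.19 in the KSFM-Ca2+ libraries and 94.1, 139 and 111 in the DKSFM libraries. As for *Krt15*, its neighbour on chromosome 11, replicate 1 was the highest and replicate 3 the lowest of the KSFM-Ca2+ libraries. The rise from 4.57 ± 1.34 to 115 ± 22.6 was a log2 fold change of 4.65 (standard error 0.22, adjusted p = 2.94e-07 in limma). *Krt4* did not pass the filter and was listed at 0.1, 0.2 and 0.1 in the KSFM-Ca2+ libraries, then at 0.1, 0.3 and 0.3 in the DKSFM libraries. *Krt13* was therefore present without a like level of *Krt4* RNA.

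**Figure D3:**
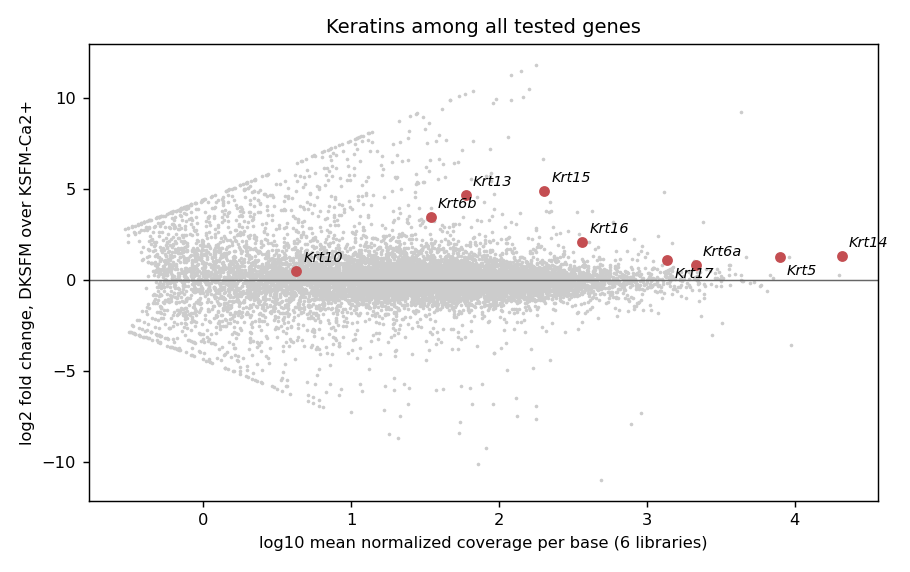
Log2 fold change of DKSFM over KSFM-Ca2+ against the log10 of mean normalized coverage per base over the 6 libraries, for the 12409 tested genes (grey) and the 9 tested keratins (red). *Krt14* and *Krt5* lie at the right edge with log2 fold changes of 1.31 and 1.25, and *Krt10* lies near the left of the cloud.

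The balance between partners was read as the ratio of coverages within each library, which does not depend on scaling between libraries. The 12 ratios compared were all without overlap between the lines, so each gave an exact permutation p of 0.1 (two-sided, n = 3 against 3; 0.1 after adjustment over the 12), the smallest that 6 libraries allow. *Krt5* to *Krt14* was 0.401, 0.384 and 0.389 in the KSFM-Ca2+ libraries and 0.383, 0.366 and 0.376 in the DKSFM libraries. The basal pair thus kept nearly the same ratio while both genes more than doubled, with a difference of -0.06 ± 0.03 (SE) on the log2 scale. All type II members summed to 0.480 ± 0.00932 of the type I members in KSFM-Ca2+ and 0.426 ± 0.00568 in DKSFM. Among the members, type I RNA was thus in excess in both lines, more so in DKSFM. These sums leave out keratins that are not members, such as the type II *Krt7* (means of 907 in KSFM-Ca2+ and 311 in DKSFM). Since *Krt1* was at 0 in KSFM-Ca2+, *Krt1* to *Krt10* was 0 there and 0.116, 0.131 and 0.0488 in the DKSFM libraries, and *Krt1* to *Krt5* was at most 7.81e-05. Partners of the suprabasal pair were therefore not balanced at the RNA level in either line.

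The stress pairs shifted toward the type I partners. *Krt6a* and *Krt6b* together were 10.5, 10.4 and 11.8 times *Krt16* in the KSFM-Ca2+ libraries and 4.75, 4.37 and 5.03 times in the DKSFM libraries, a difference of -1.21 ± 0.08 (SE) on the log2 scale. Against *Krt17* they were 1.85, 1.77 and 1.74 and then 1.42, 1.62 and 1.44, a difference of -0.26 ± 0.07. *Krt16* to *Krt17* went from 0.164 ± 0.0150 to 0.318 ± 0.0465 (SD, n = 3), a difference of 0.95 ± 0.14, so that among the type I stress keratins *Krt16* gained on *Krt17*. The ratio of *Krt6a* to *Krt6b* went from 277 ± 20.4 to 43.3 ± 6.54, the largest shift of a ratio whose members were above 0 in all libraries apart from *Krt15* to *Krt14*.

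*Krt6a* and *Krt6b* together went from 0.335 ± 0.0209 to 0.250 ± 0.0110 of *Krt5*, and *Krt17* from 0.0735 ± 0.00580 to 0.0630 ± 0.00354 of *Krt14*. *Krt15* to *Krt14* rose from 0.00113 ± 0.000320 to 0.0132 ± 0.000370, a difference of 3.57 ± 0.24 on the log2 scale. *Krt10* to *Krt14* went the other way, from 0.000292 ± 1.19e-05 to 0.000170 ± 4.19e-05, a difference of -0.82 ± 0.20. Relative to the basal keratin, the suprabasal *Krt10* was thus lower in DKSFM, though its own coverage was higher.

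**Figure D4:**
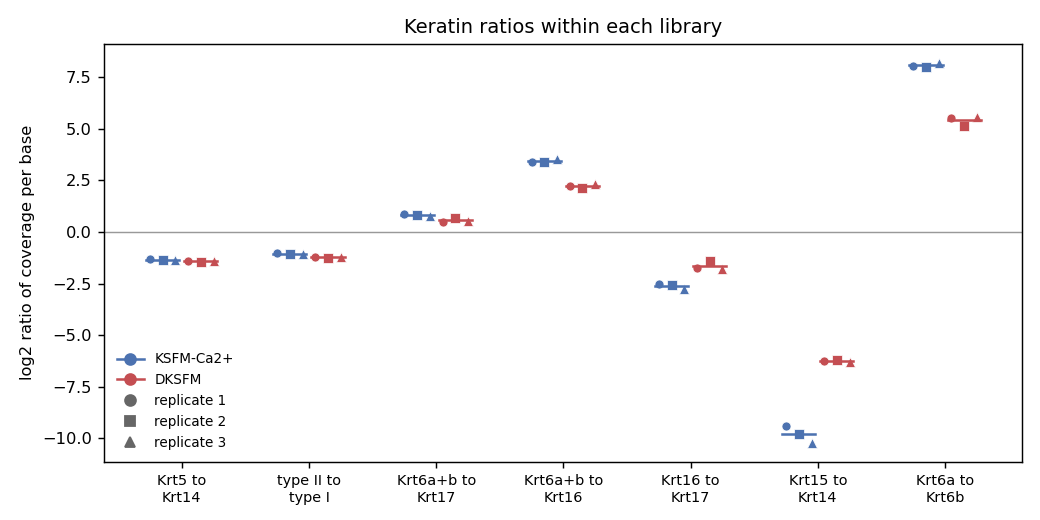
Log2 ratio of coverage per base (pseudocount 0.1) between keratins or sums of keratins within each of the 6 libraries, with replicates as symbols and the mean of each line as a bar. *Krt5* to *Krt14* differs by -0.06 between the lines, *Krt6a* plus *Krt6b* to *Krt16* by -1.21 and *Krt6a* to *Krt6b* by -2.67.

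The 10 keratins took up 1.55%, 1.59% and 1.56% of all coverage in the KSFM-Ca2+ libraries and 3.84%, 3.53% and 3.89% in the DKSFM libraries. The difference of 2.19 percentage points had an exact permutation p of 0.1 (two-sided, n = 3 against 3), the smallest possible. Summed over members, mean normalized coverage went from 19275 to 46627, a 2.42-fold change. *Krt14* made up 64.9% of this gain and *Krt5* 23.6%, so the basal pair carried most of it. *Krt15*, with the largest fold, added 1.38%. The share of *Krt6a* among the members went from 8.11% to 5.83%, and that of *Krt16* from 0.745% to 1.27%.

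Several of these genes are close copies, and reads of 85 bases cannot always tell them apart. In windows of that length over the annotated transcripts, *Krt6a* shared 852 of 2194 (38.8%) with another gene and *Krt6b* 762 of 2151 (35.4%), in most cases with each other (727 windows). *Krt16* shared 401 of 1481 (27.1%), of which 325 lay in *Gm11597* and 76 in *Krt14*. For *Krt14* and *Krt5* the shares were 4.71% and 4.16%, and *Krt15*, *Krt1*, *Krt10*, *Krt17* and *Krt13* shared none. Over their coding sequences *Krt6a* and *Krt6b* were 97.8% identical, with the longest run of identical bases at 280, and *Krt14* and *Krt16* were 86.5% identical. The related genes were low where listed. *Gm5478* was listed at no more than 0.3 in any library and *Gm5414* at no more than 3.0, and *Gm11597* was not among the listed symbols. As a reference, the coverage was worked out that *Krt6b* would get if all *Krt6a* reads in their shared windows were placed on it. The mean coverage of *Krt6b* equals 1.07% of that reference in KSFM-Ca2+ and 6.92% in DKSFM. For *Krt16*, with *Krt14* as the source of the reads, the same figures are 23.4% and 38.8%. The sources used here name Salmon as the quantifier but do not say how the deposited coverage was computed from shared reads. By these exact windows, the coverage of *Krt6a*, *Krt6b* and *Krt16* is less certain than that of the others. Windows with any difference were not counted as shared, and *Krt14* and *Krt17* have a window that differs by 1 base of 85. The part of shared or nearly shared reads in these values was not tested.

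The sequences below show what a read can and cannot separate, each in coding sequence on the minus strand of GRCm38 and written 5′ to 3′ as in the transcript. The sequence shared by *Krt6a* (exon 1, chr15:101694131-101694215) and *Krt6b* (exon 1, chr15:101680106-101680190) is the same in all 85 bases, as is the sequence shared by *Krt14* (exon 1, chr11:100207201-100207285) and *Krt16* (exon 1, chr11:100248636-100248720). *Krt16* (exon 1, chr11:100248461-100248545) and *Krt17* (exon 1, chr11:100260623-100260707) can be told apart by 4 bases in the window shown, which capitals mark. *Krt14* (exon 1, chr11:100207005-100207089) and *Krt15* (exon 1, chr11:100135477-100135561), the 2 basal type I members, differ by 6 bases in theirs, also in capitals.
Krt6a and Krt6b: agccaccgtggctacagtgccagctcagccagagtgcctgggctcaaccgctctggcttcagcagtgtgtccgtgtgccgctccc
Krt14 and Krt16: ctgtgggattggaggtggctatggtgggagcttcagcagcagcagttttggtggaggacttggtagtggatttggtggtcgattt
Krt16: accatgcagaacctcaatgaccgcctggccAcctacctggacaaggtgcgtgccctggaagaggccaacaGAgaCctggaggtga
Krt17: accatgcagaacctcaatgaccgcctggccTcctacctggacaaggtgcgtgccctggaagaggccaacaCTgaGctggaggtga
Krt14: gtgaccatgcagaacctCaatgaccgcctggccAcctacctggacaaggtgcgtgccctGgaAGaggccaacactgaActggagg
Krt15: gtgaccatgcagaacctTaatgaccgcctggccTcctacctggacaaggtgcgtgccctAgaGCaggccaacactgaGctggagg

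The members lie in 2 gene clusters, type I on chromosome 11 and type II on chromosome 15, and keratins within a cluster differed in their changes. On chromosome 11, 11 of 27 listed keratins were tested, of which 9 rose and none fell in limma (0 lower at an unadjusted p under 0.05). The 52 tested genes that are not keratins, within the cluster or 1 Mb of it, had a median log2 fold change of -0.10, with 7 higher and 5 lower past the threshold, and the median over the whole chromosome was -0.08. On chromosome 15, where *Krt18* sits beside the type II genes, 10 of 27 listed keratins were tested, of which 7 rose and 1, *Krt7*, fell. Of the tested keratins, 2 on chromosome 11 (*Krt32* and *Krt19*) and 4 on chromosome 15 (*Krt8*, *Krt18*, *Krt78* and *Krt79*), none of them members, were under the filter's minimum in every KSFM-Ca2+ library, so they could be called higher alone and add nothing to a comparison with the neighbours. The 41 neighbours on chromosome 15 had a median of 0.05, with 6 higher and 4 lower, and the chromosome median was -0.01. Within the clusters, *Krt13* and *Krt15* lie side by side with log2 fold changes of 4.65 and 4.88, while *Krt6a* and *Krt6b*, also neighbours, had 0.80 and 3.46.

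**Figure D5:**
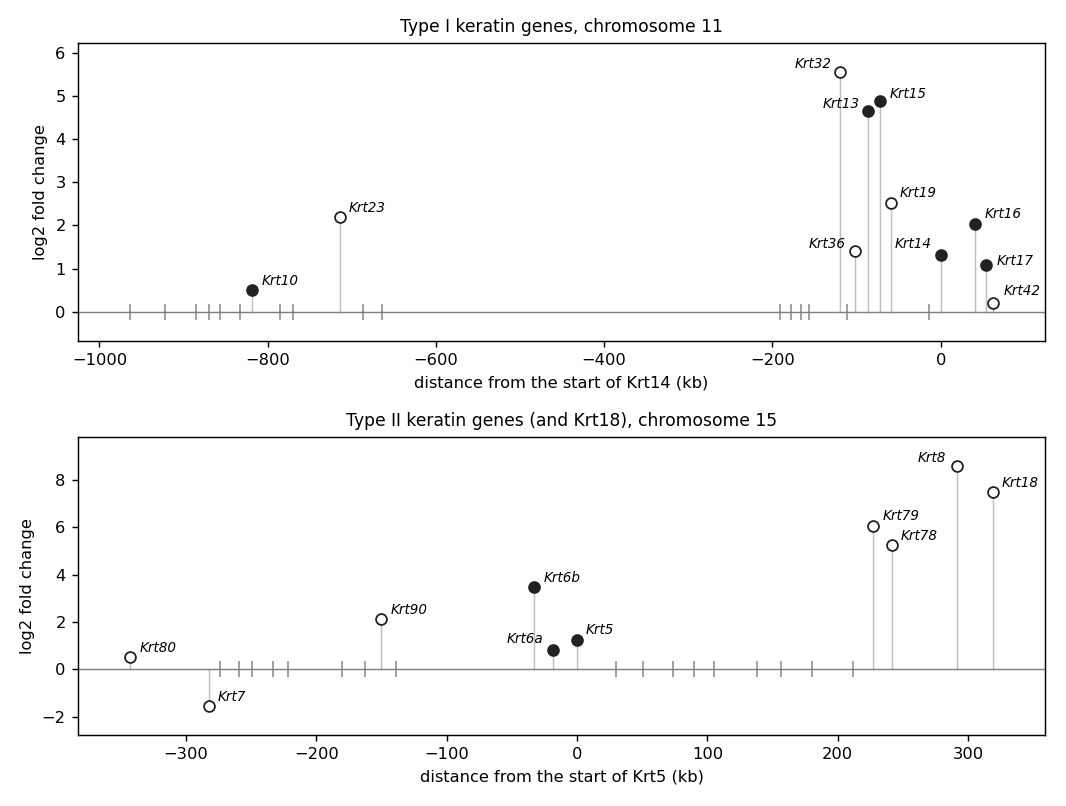
Log2 fold change of DKSFM over KSFM-Ca2+ for tested keratin genes by their distance in kb from the start of *Krt14* (top) or *Krt5* (bottom), with members filled, other keratins open and untested keratins as ticks. Of the 21 tested keratins, *Krt7* is the only one below 0, at -1.54; *Krt42* lies at 0.21 and falls below 0 with quantile normalization.

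Upstream sequence was found in the RefSeq table (GRCm38.p6) for 4 of the 10 members. It is shown for *Krt13*, *Krt10* and *Krt5*, with log2 fold changes of 4.65, 0.49 and 1.25, of which that of *Krt10* was not past the threshold. The entry for *Krt14* begins at an internal start 1518 bases from that of GENCODE. The motifs searched on both strands were AP-1 (TGANTCA, in 6.75% of 32851 promoters), a TATA box (TATAAA, 12.4%), AP-2 (GCCNNNGGC, 13.7%), Sp1 (GGGCGG, 32.7%), a CACCC box (CCACCC, 28.1%) and ETS (GGAAGT, 19.7%). Capitals mark the matches. The 250 bases before the GENCODE start of *Krt13* (chr11:100121567-100121816, minus strand) held AP-1, ETS and CACCC matches, and those of *Krt10* (chr11:99389365-99389614, minus strand) a TATA and a CACCC match. For *Krt5* the 250 bases shown (chr15:101712906-101713155, minus strand) lie before a RefSeq start 7 bases from that of GENCODE. They held none of these motifs. The table also lists an internal start of *Krt13*, 989 bases away, whose 250 bases hold 2 AP-1 matches (183 and 34 bases before it) and none of the other motifs. A match is a description of letters and not a binding site.
Krt13: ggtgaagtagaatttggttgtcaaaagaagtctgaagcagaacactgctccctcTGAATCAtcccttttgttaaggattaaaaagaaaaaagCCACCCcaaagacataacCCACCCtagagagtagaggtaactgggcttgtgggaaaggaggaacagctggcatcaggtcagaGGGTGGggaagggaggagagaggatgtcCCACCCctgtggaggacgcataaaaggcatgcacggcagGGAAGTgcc
Krt10: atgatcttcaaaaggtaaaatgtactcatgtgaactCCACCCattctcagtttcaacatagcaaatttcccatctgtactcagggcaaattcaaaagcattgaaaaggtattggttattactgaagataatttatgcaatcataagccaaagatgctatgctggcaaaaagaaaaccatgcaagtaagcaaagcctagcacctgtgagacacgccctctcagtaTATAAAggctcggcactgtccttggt
Krt5: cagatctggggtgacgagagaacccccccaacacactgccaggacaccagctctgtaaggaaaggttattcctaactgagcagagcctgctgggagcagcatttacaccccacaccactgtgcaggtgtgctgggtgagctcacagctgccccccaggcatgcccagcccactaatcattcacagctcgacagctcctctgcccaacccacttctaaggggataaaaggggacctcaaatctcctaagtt

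Among the 45 keratins that are not members, 32 were above 0 in at least 1 library and 12 were tested, of which 9 rose and 1 fell in limma, with a median log2 fold change of 2.36. Of these 12, 6 were under the filter's minimum in every KSFM-Ca2+ library and passed through the DKSFM libraries, so their count shows no more than the filter allows. Of the other type II epithelial keratins, 3 of 5 tested rose, 1 fell and 1 did not pass (median 5.24), and the 3 risers (*Krt8*, *Krt78* and *Krt79*) are all among those 6, so the median rests on them. *Krt8*, a keratin of simple epithelia, was listed at 0.2, 0 and 0.1 in the KSFM-Ca2+ libraries, then at 66.2, 64.7 and 64.6 in the DKSFM libraries. *Krt7*, its relative in simple epithelia, fell from 907 ± 75.2 to 311 ± 2.77 (log2 fold change -1.54, adjusted p = 6.07e-08 in limma). Of the other type I epithelial keratins, 3 of 4 tested rose and none fell in limma (0 lower at an unadjusted p under 0.05; median 2.36), with 2 of the risers (*Krt18* and *Krt19*) among those 6. *Krt18*, the partner of *Krt8*, was listed at 0.1, 0 and 0 and then at 22.0, 20.5 and 18.7. *Krt42*, next to *Krt17*, had 1.02 ± 0.377 and 1.14 ± 0.0391, and its libraries overlapped (log2 fold change 0.21, adjusted p = 0.486 in limma).

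Genes that work with keratins were followed through fixed lists. Of 32 tested transcription factors and Notch receptors known to act on keratin genes, 8 rose, 1 fell and 23 did not pass (median log2 fold change 0.52). Of these 32, 2 (*Notch3* and *Gli1*) were under the filter's minimum in every KSFM-Ca2+ library and passed through the DKSFM libraries, so they could be called in that direction alone. The receptor gene *Notch3*, which acts in the switch to suprabasal cells, was listed at 0.3, 0.2 and 0.1 in the KSFM-Ca2+ libraries, then at 8.4, 9.4 and 8.9 in the DKSFM libraries. *Fosl1*, which encodes the AP-1 subunit Fra-1, fell from 17.04 ± 2.33 to 3.20 ± 0.746 (log2 fold change -2.39, adjusted p = 2.76e-06 in limma). *Myc* had the highest coverage of the list over both lines together, with 410.0 ± 8.85 and 612 ± 24.3, a change of less than 2-fold.

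The next list holds proteins that anchor keratin filaments to desmosomes and hemidesmosomes. Of its 13 genes, 5 rose, none fell and 8 did not pass in limma (2 lower at an unadjusted p under 0.05; median 0.71). *Ppl*, which encodes periplakin, rose from 63.4 ± 4.79 to 182 ± 3.12 (log2 fold change 1.53, adjusted p = 5.70e-08 in limma). *Itgb4*, the hemidesmosomal integrin chain, had the lowest change of the list with 321 ± 6.24 and 192 ± 8.57 (log2 fold change -0.74), and *Col17a1* the highest coverage with 1423 ± 53.2 and 1834 ± 53.8. Of 12 proteins that bind or modify keratins, 1 rose, none fell and 11 did not pass in limma (4 lower at an unadjusted p under 0.05; median 0.13). The riser was *Casp6*, a caspase that cleaves keratins, with 16.5 ± 1.11 and 35.6 ± 1.48 (log2 fold change 1.10, adjusted p = 7.56e-07 in limma). *Csnk1a1*, the most covered over both lines together, had 1173 ± 32.8 and 970 ± 19.0.

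Most tested genes of the spinous and granular layers rose, while *Krt1* and *Krt10* were scarce. Of 16 tested, 14 rose and none fell past the threshold of limma, with a median log2 fold change of 3.64. At an unadjusted p under 0.05, 1 (*Ivl*) was lower, by less than 2-fold with an adjusted p under 0.01. Of the 16, 5 passed the filter through the DKSFM libraries alone. *Krtdap* and *Ivl* did not pass the threshold. *Asprv1*, a protease gene of the granular layer, was listed at 1.3, 1.0 and 0.6 in the KSFM-Ca2+ libraries, then at 181.9, 288.2 and 193.8 in the DKSFM libraries. *Dmkn*, which encodes dermokine, rose from 480.0 ± 8.43 to 4292 ± 26.0 (log2 fold change 3.16, adjusted p = 8.57e-11 in limma). *Ivl*, the gene of the envelope protein involucrin, had 21.3 ± 0.185 and 13.5 ± 0.370, with the libraries of DKSFM lower (log2 fold change -0.66, adjusted p = 3.70e-06 in limma).

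Most tested genes known to be induced with the stress keratins in activated keratinocytes fell. Of 14 tested, 10 fell, 2 rose and 2 did not pass (median -2.32), and 1 of the 14 passed the filter through the KSFM-Ca2+ libraries alone. *Il1a*, the cytokine gene of activated keratinocytes, was listed at 131.8, 106.4 and 102.1 in the KSFM-Ca2+ libraries, then at 0.4, 0.6 and 0.2 in the DKSFM libraries. *Cd44*, the hyaluronan receptor, fell from 1200.1 ± 52.8 to 432 ± 19.9 (log2 fold change -1.47, adjusted p = 2.58e-08 in limma). *Fn1*, the fibronectin gene, rose from 7.55 ± 0.529 to 32.8 ± 2.33 (log2 fold change 2.11, adjusted p = 6.32e-08 in limma). *Krt16*, *Krt17* and *Krt6b* were thus higher in the line in which most of the listed activation genes were lower.

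The genes with patterns most like 3 of the members were sought among 8675 other tested genes with a mean normalized coverage of at least 10, by the Euclidean distance between centred log2 values over the 6 libraries. Nearest to *Krt14* were *Bdh1* (distance 0.0885), *Sox4* (0.102) and *Egfr* (0.111), with log2 fold changes of 1.28, 1.30 and 1.33. Nearest to *Krt6a* were *S100a11* (0.0619), *Clec16a* (0.0687) and *Rabac1* (0.0706), at 0.80, 0.82 and 0.80. For *Krt1*, whose values lie near the rounding step, the nearest were *Txnip* (0.991), *Ccl27a* (0.992) and *Tgm1* (1.01), which were much farther away than those of *Krt14* and *Krt6a*. With 6 libraries in 2 groups, likeness of this kind mostly repeats the difference between the lines.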

How the data were processed

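RNA-seq of 6 libraries was used, 3 for each line, with groups and replicate numbers from the sample labels. The authors sequenced poly(A) RNA with strand kept, in single reads of 85 bases, and the authors ran STAR (mm10, RefSeq), Salmon and DESeq2. What the authors deposited for 24982 genes is a signal, namely coverage averaged over the bases of each gene, to 1 decimal and unscaled. Coverage is not a count, so limma was used in place of a count model. Scaling was an unweighted trimmed mean of M values (trims of 30% of M and 5% of A values, factors from 0.991 to 1.01) over genes above 0 in both libraries. A first version, over genes of at least 0.5 in both libraries, was changed after its counts of called genes were seen to differ from earlier ones for these data, and is kept as an alternative. For the test, log2(normalized coverage + 0.1) went into limma (intensity trend), adjusted by the Benjamini-Hochberg method over 12409 genes with at least 0.5 in at least 3 libraries (2 when a library was left out), and was checked on simulated data. Ratios and shares used unscaled coverage and exact two-sided permutation tests.

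The members and lists were chosen with earlier results of these data known. Named genes were all members, genes from among the highest, lowest and most covered tested of each list, the 3 nearest patterns of 3 members, and keratins of the clusters. *Krt4*, *Krtdap* and the marker and related genes given by value were named beside them. Alternatives were scaling by median ratios, by totals with and without keratins or by quantiles, other filters, pseudocounts of 0.5 and 1, no trend, a replicate block, no fold limit, each library left out in turn, only the libraries with combined in the file name, and the first version of the trimmed mean. GENCODE M21 gave positions and transcripts (24490 symbols matched), and RefSeq (GRCm38.p6) gave upstream sequences. Coverage gives no read counts and hence no counting interval, and the step of 0.1 limits low values. R 4.3.3, limma 3.58.1, Python 3.11.15, SciPy 1.17.1 and matplotlib 3.10.9 were used.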

Additional observations from a re-analysis of the deposited data

How the results depend on the processing

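Over 18 alternatives other than dropping the fold limit, *Krt5*, *Krt15*, *Krt6b*, *Krt16* and *Krt13* kept their direction and stayed past the threshold. *Krt14* fell short of 2-fold with quantile normalization (0.93) and *Krt17* with the combined libraries only (0.96). Without a fold limit, *Krt10* (0.49) and *Krt6a* (0.80) passed, and 4402 genes were higher and 4606 lower, by construction. A filter on every library left 1032 genes higher and 955 lower, since it removes genes that are low in either line. Members called higher numbered 6 with quantile normalization and with the combined libraries only, and 8 without a filter, where *Krt1* entered the fit. With a library left out they numbered 7 to 8 of 9 to 10 tested, and none was lower (*Krt1* was called without KSFM-Ca2+ replicate 1, 2 or 3 or DKSFM replicate 3), while 1610 to 1704 of all genes were higher and 1295 to 1328 lower. The first version of the trimmed mean, over genes of at least 0.5, was replaced as the main scaling after its counts had been seen. It called 7 members higher, and over all genes 1692 higher and 1276 lower, against 1636 and 1307 with the main scaling.

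Leaving out each library in turn gave log2 fold changes of 1.22 to 1.31 for *Krt5*, 1.28 to 1.36 for *Krt14*, 4.67 to 5.07 for *Krt15*, 0.35 to 0.58 for *Krt10*, 0.77 to 0.84 for *Krt6a*, 3.37 to 3.53 for *Krt6b*, 2.02 to 2.06 for *Krt16*, 1.03 to 1.18 for *Krt17* and 4.41 to 4.84 for *Krt13*. With a pseudocount of 1 the log2 difference in *Krt6a* to *Krt6b* was -2.48. That in *Krt1* to *Krt10* was 0.25, and that in *Krt1* to *Krt5* was -0.57, with the sign turned; these are set by the pseudocount, as *Krt1* was listed at 0 in KSFM-Ca2+, and are no fold changes. Without a pseudocount the *Krt1* ratios give no value. *Krt42*, which was not past the threshold, changed sign with quantile normalization (-0.14), without KSFM-Ca2+ replicate 2 (-0.10) and with the combined libraries only (-0.041), and leaving out each library gave -0.10 to 0.40; the cause was not tested.

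Same-numbered libraries did not deviate together (correlations across genes of -0.00508, 0.0239 and -0.0061), so the numbers were not taken as pairs. With a replicate block, 7 members were called higher, as without it, and the adjusted p of *Krt10* in limma was 0.0129.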

Other observations

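DKSFM replicate 2 was the highest of the DKSFM libraries for *Krt1*, *Krt10*, *Krt6b*, *Krt16* and *Krt13*, and the lowest for *Krt5*, *Krt14*, *Krt15*, *Krt6a* and *Krt17*. Over all tested genes this library was the highest of its line for 37.0% and the lowest for 32.8%. Of the 16 tested spinous and granular layer genes, it was the highest for 13 and the lowest for none. Of the 13 genes of keratin anchoring plaque proteins, it was the lowest for 12. In KSFM-Ca2+ the same 13 genes were highest in replicate 1 for 11 and lowest in replicate 3 for 12. These lists were picked from 7 after the values had been seen, genes of a list are not independent of each other, and the cause was not tested.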
